A study of Rattus norvegicus with 10 samples.

Results

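The comparison of FoxE1-silenced rat thyroid cells with untransfected wild-type cells (siFoxE1 PCCl3 vs wt PCCl3) was described across all genes that the arrays measured. It comprised 5 of the 10 arrays of the series, chosen by their sample titles: 4 individual arrays, each with RNA of 1 culture per condition, and 1 array with the pooled RNA and the dyes swapped. The other 5 arrays set siFoxE1 cells against cells given a non-silencing siRNA (siScramble PCCl3) and enter here only where named. PCCl3 cells are a continuous line of thyroid follicular cells grown in a hormone-supplemented medium. siFoxE1 cells had received a pool of siRNAs against FoxE1 at 25 nM with the transfection reagent DharmaFECT 1, and RNA was taken 48 h later. wt cells had received neither siRNA nor reagent. Transfection and loss of FoxE1 therefore cannot be told apart in this comparison, and values against siScramble are given for a part of the genes. Since the pool was made from those 4 cultures, it adds no replicate and n is 4. All 5 arrays lay on 1 slide and were read in 1 scan, and siFoxE1 RNA carried the red dye Cy5 on the individual arrays and the green dye Cy3 on the pool. The dyes follow the sample labels, although a drawing of the design in the study shows the colours the other way round.

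FoxE1 is a forkhead transcription factor needed for the formation and migration of the thyroid gland. In the mature follicular cell it acts with Pax8 and Nkx2-1 on the genes of thyroid hormone synthesis, among them thyroglobulin (Tg), the protein on which the hormones are made, and Slc5a5, which brings iodide into the cell. An siRNA guides the cleavage of matching mRNA, so a lower level of the targeted mRNA is the direct readout. Double-stranded RNA and transfection reagents are also known to switch on interferon-stimulated genes in many cell types.

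Values are log2 ratios of siFoxE1 over wt after background correction and normalization. The fitted log2 fold change is the average of 2 numbers, the mean of the 4 individual arrays and the pooled array, so that a dye effect of a probe cancels. Of 30367 probes, 18526 were tested, which represented 9880 named genes, each by its brightest probe. On the 5 arrays alone limma called 3 genes at an adjusted p under 0.05, which is 0.0304% of the genes tested, all of them lower in siFoxE1 cells, while 2051 genes had an unadjusted p under 0.05. Because each siFoxE1 extract was also hybridized against siScramble, a second fit used all 10 arrays with the culture number as a block, here called the block fit. The pooled arrays formed a block of their own in it, although they hold RNA of the same 4 cultures. The block fit thus counts them as a unit beside the cultures. It also estimates 1 variance per gene from both comparisons, so the spread against siScramble enters the standard errors against wt. Over the genes tested, the SD of the log2 ratio on individual arrays was 0.174 to 0.320 against siScramble and 0.187 to 0.483 against wt. For Duox2, for example, the standard error was 0.388 on the own arrays and 0.309 in the block fit. It called 562 genes higher (5.69% of those tested) and 474 lower (4.80%). With the block fit the number of called genes was 386 without culture 1, 2215 without culture 2, 940 without culture 3 and 133 without culture 4. Of these, 231, 1154, 537 and 102 were higher and 155, 1061, 403 and 31 lower, in the same order. The number was 432 of 9880 genes tested where each comparison had its own dye term, 257 higher and 175 lower. Of the 562 and 474 genes above, 248 and 172 also passed there. Genes are said below to pass on the own arrays or in the block fit, and the adjusted p is given for the genes whose array values are described.

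The arrays differed in how far the ratios spread. The SD of the log2 ratio over the genes tested was 0.187 in culture 2, 0.258 in culture 1, 0.328 in culture 4, 0.483 in culture 3 and 0.281 on the pool. Culture 3 alone had 199 genes at least 2-fold higher and 190 at least 2-fold lower that no other individual array had. Across genes, the ratios of cultures 3 and 4 correlated at r = 0.802, those of cultures 1 and 4 at r = 0.72, and those of culture 2 and the pool at r = -0.003. These are correlations across genes, which are not independent replicates. No spot was saturated. All 7 markers of thyroid follicular cells were well above background on the 5 arrays in both channels. Their summed log2 intensity was 83.6 to 88.9 in wt and 81.4 to 85.9 in siFoxE1 cultures, lower in siFoxE1 within each culture. In the block fit 4 of the 7 were lower and none higher. The 7 include Foxe1, the target of the siRNA, which was 1 of the 4. In culture 3 the sums were 83.94 in wt and 83.86 in siFoxE1, a smaller fall than that of Foxe1 alone (11.93 and 11.58). Of 7 markers of macrophages and other leukocytes, Cd68 and Csf1r were well above background on all 5 arrays in both channels. Ptprc, Itgam and Cd3e were not well above background. The 3 that were tested had a summed log2 intensity of 19.6 to 19.9 in wt and 19.4 to 19.9 in siFoxE1 cultures. Of 6 fibroblast markers, Col1a1, Col1a2 and Pdgfra were well above background on all 5 arrays in both channels, and Col3a1, Dcn and Lum were not. The 3 tested summed to 21.8 to 22.6 in wt and 21.7 to 22.9 in siFoxE1 cultures.

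Foxe1 mRNA was lower in the silenced cells on every array. Its log2 ratio was -0.52 in culture 1, -0.55 in culture 2, -0.34 in culture 3, -0.62 in culture 4 and -1.21 on the pool. The pool, on which the dyes were swapped, gave the lowest value, and culture 3 the value nearest to 0. The fit gave a 1.81-fold fall (fitted -0.86 with a standard error of 0.0773, adjusted p = 0.0333 by limma, n = 4 cultures). The mean of the individual arrays was -0.51 ± 0.12 (SD, n = 4). These values are of mRNA. For FoxE1 protein the study reported that most was lost, by western blot of the samples used for the arrays. In wt cultures the normalized log2 intensity of Foxe1 was 11.97, 12.89, 11.93 and 12.37 for cultures 1 to 4, and in siFoxE1 cultures it was 11.45, 12.34, 11.58 and 11.76. The intensities of both conditions thus overlapped, since culture 2 was higher than the others in both, while within each culture siFoxE1 lay below wt.

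The largest fall among the called genes was that of Ahcy, which encodes S-adenosylhomocysteine hydrolase, the enzyme that clears the by-product of cellular methylation reactions. Its log2 ratio was -2.01, -1.40, -1.97 and -1.94 in cultures 1 to 4 and -1.69 on the pool. Every array showed more than a 2-fold difference, and Ahcy was the only gene at least 2-fold lower on all 5. The fit gave a 3.38-fold fall (fitted -1.76 with a standard error of 0.125, adjusted p = 0.0122). Sem1, a small subunit of the proteasome lid that also binds Brca2, was the most even of the called genes. Its log2 ratio was -0.78, -0.74, -0.81 and -0.74 in cultures 1 to 4 and -0.84 on the pool. The fall was 1.75-fold (fitted -0.81 with a standard error of 0.0651, adjusted p = 0.0188), and a second probe of Sem1 gave -0.68 with an adjusted p = 0.0532. For both genes the siFoxE1 intensities of all 4 cultures lay below all 4 wt intensities. Against siScramble the fitted log2 fold changes were -0.80 for Foxe1, -1.86 for Ahcy and -0.85 for Sem1. All 3 genes passed in the block fit (adjusted p = 0.00101, 4.27e-06 and 0.000142 for Foxe1, Ahcy and Sem1). On the own arrays the calls were lost without culture 1 (adjusted p = 0.236, 0.115 and 0.163 in the same order) and without culture 4 (0.234, 0.119 and 0.213), and with the processed signals of the scanner software (0.184, 0.167 and 0.184), while the sign stayed negative.

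The promoters of Ahcy and Sem1 are shown because both passed on the own arrays, and that of Cd74 because it had the lowest adjusted p among the named genes that were higher. Each is the RefSeq sequence of build GRCr8 from 250 bases before to 50 bases after the start of the gene, on the strand of the gene, and capitals mark AAACA, the core of the FoxE1 site, or its reverse complement TGTTT. The Ahcy promoter lies at chr3:164044513-164044812 on the minus strand, that of Sem1 at chr4:35658413-35658712 on the minus strand and that of Cd74 at chr18:56526956-56527255 on the plus strand.
Ahcy: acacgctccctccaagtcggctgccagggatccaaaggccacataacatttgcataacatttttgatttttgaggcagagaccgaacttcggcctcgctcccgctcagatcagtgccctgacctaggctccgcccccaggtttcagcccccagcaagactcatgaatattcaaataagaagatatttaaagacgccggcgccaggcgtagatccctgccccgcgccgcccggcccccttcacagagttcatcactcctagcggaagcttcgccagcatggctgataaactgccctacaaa
Sem1: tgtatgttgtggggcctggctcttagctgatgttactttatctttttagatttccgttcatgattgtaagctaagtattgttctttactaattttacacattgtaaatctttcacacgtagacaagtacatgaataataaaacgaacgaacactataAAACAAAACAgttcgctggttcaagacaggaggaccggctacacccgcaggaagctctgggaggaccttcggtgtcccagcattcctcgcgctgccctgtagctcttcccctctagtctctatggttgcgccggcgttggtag
Cd74: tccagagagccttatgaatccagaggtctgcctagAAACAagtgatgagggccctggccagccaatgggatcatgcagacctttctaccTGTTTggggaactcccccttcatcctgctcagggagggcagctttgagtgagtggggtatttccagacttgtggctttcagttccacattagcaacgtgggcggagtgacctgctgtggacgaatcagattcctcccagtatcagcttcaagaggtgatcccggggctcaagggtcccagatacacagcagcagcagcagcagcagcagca
The Ahcy window held no AAACA on either strand, the Sem1 window held 2 adjoining copies and the Cd74 window held 1 copy on each strand. A promoter was listed for 105 of the 139 named genes, not for Foxe1, Cdh1, Prss8 and Folr1 among others. AAACA on either strand stood in 44 of these 105 promoters (41.9%), in 37.2% of the promoters of genes tested and in 51.9% of all 33469 promoters listed. It stood in 40.2% of the promoters of genes called higher and 33.3% of those called lower in the block fit. AAACA with TTGG, part of the NF1/CTF site, in either order at a distance of 5 to 30 bases, stood in 16 of the 105 promoters (15.2%), among them Cd74, RT1-Da, RT1-Bb, Dusp5, Nupr1 and Ccn2, in 8.54% of those of genes tested and in 13.5% of all promoters.

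**Figure D1:**
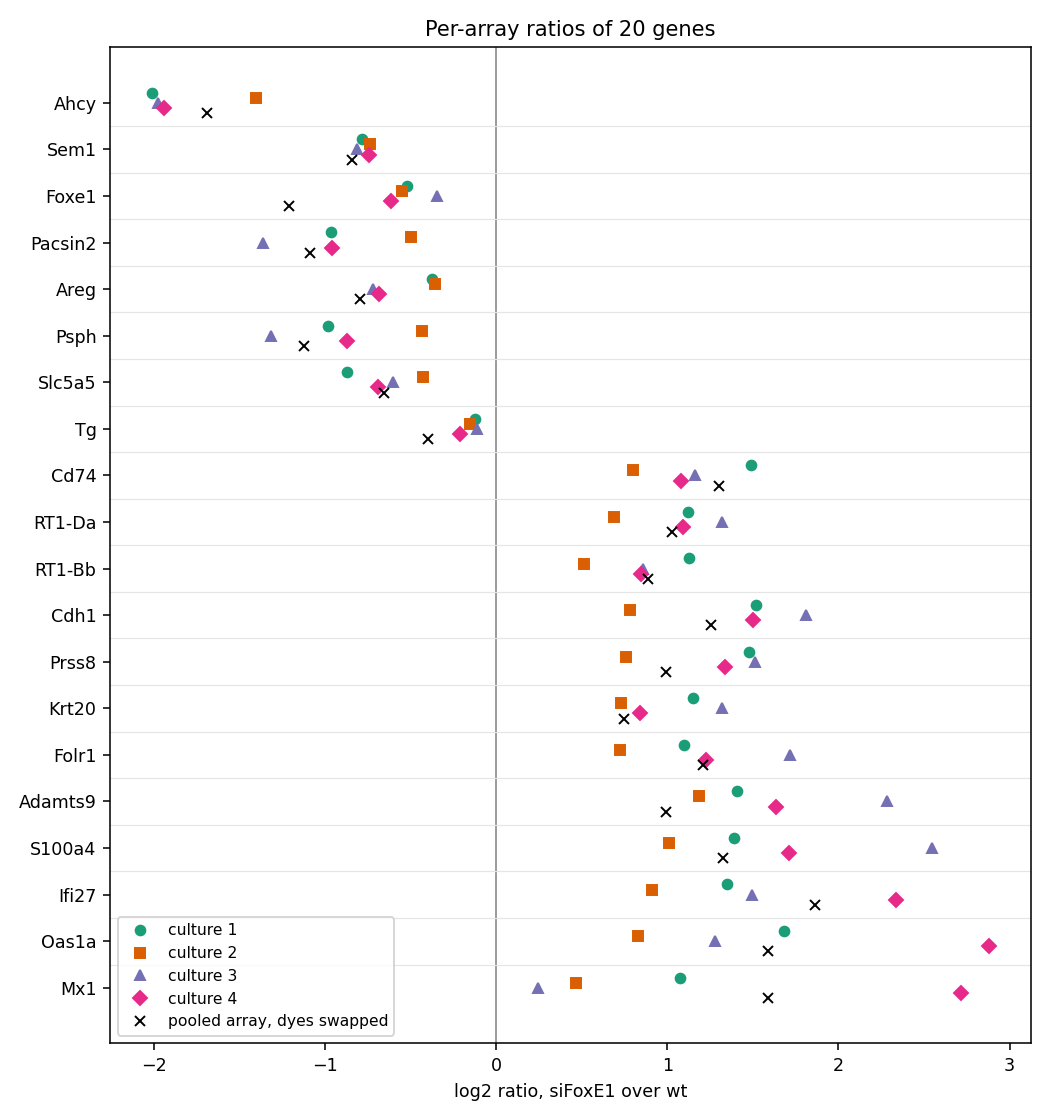
Log2 ratio of siFoxE1 over wt (horizontal axis) for 20 genes, 1 symbol per array: the 4 cultures in colour and the pooled array with swapped dyes as a cross. Ahcy, Sem1 and Foxe1 lie below 0 on all arrays, the class II and epithelial genes above 0 with culture 2 lowest, and Ifi27, Oas1a and Mx1 are highest in culture 4.

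**Figure D2:**
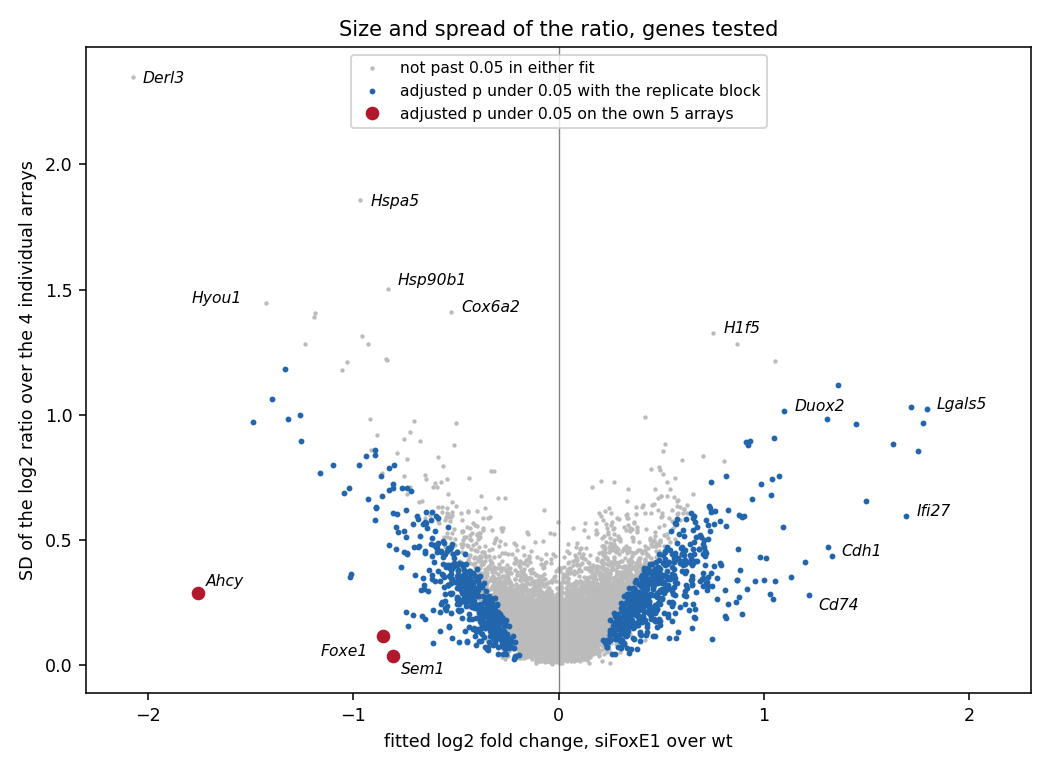
Fitted log2 fold change of siFoxE1 over wt (horizontal axis) against the SD of the log2 ratio over the 4 individual arrays (vertical axis) for 9880 genes. Red points are the 3 genes that passed on the own 5 arrays, blue points further genes that passed in the block fit, and the upper left holds genes of the endoplasmic reticulum such as Derl3 and Hspa5 with a large spread.

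Of the genes that define the thyroid follicular cell, those of hormone synthesis moved in both directions. Of 24 genes of thyroid differentiation with a probe, 20 were tested; Foxe1 alone passed on the own arrays, and in the block fit 4 were lower and 7 higher. With separate dye terms 3 were lower and 2 higher, where 175 of all 9880 genes tested were lower and 257 higher. Duox2 did not pass there (adjusted p = 0.0928). The median log2 fold change of the 20 was 0.20, beside 0.00 for all genes tested. Slc5a5, the sodium/iodide symporter that takes up iodide, had log2 ratios of -0.87, -0.43, -0.60 and -0.69 in cultures 1 to 4 and -0.66 on the pool. It was lower on each array, and its siFoxE1 intensities lay below those of wt without overlap (log2 fold change -0.65, standard error 0.0946, adjusted p = 0.117, block fit 0.00349). Against siScramble the log2 fold change of Slc5a5 was -0.31. Tg, the most abundant product of the cell, differed little, from -0.11 in culture 3 to -0.21 in culture 4 and -0.40 on the pool (log2 fold change -0.27, adjusted p = 0.234, block fit 0.0282).

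The genes on the other side included the machinery that makes hydrogen peroxide for hormone synthesis. Duox2, the dual oxidase, had log2 ratios of 0.55, 0.95, 2.86 and 1.17 in cultures 1 to 4 and 0.81 on the pool. Culture 3 was far above the others (log2 fold change 1.10, standard error 0.388, adjusted p = 0.251, block fit 0.0423). Its maturation factor Duoxa2 (0.60, block fit adjusted p = 0.0137), Duox1 (0.51), Duoxa1 (0.34), the deiodinase Dio1 (0.52), the chloride channel Ano1 (0.52) and the anion exchanger pendrin, Slc26a4 (0.36), also passed in the block fit with these log2 fold changes. The transcription factors Pax8 (0.33, block fit adjusted p = 0.247) and Nkx2-1 (0.18, block fit adjusted p = 0.292) did not pass, nor did the TSH receptor gene Tshr (0.04). Pax8 had log2 ratios from -0.57 in culture 2 to 0.53 in culture 3, so the cultures disagreed in sign. When culture 4 was left out, the block fit called 2 genes of the list lower and 1 higher, and without culture 1 it called 3 lower and 3 higher. As these are bulk samples, fewer cells of a type and less RNA per cell cannot be told apart.

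Genes of antigen presentation by MHC class II had a median log2 ratio above 0 on every array. These genes are typical of antigen-presenting leukocytes, and thyroid follicular cells are known to be able to express them. Of 13 genes of the list with a probe, 8 were tested, and 6 passed in the block fit, all higher, with a median log2 fold change of 0.71 for the 8. Cd74, the invariant chain that guides class II molecules, had log2 ratios of 1.49, 0.80, 1.16 and 1.08 in cultures 1 to 4 and 1.30 on the pool. Its siFoxE1 intensities lay above those of wt without overlap, and it just missed the threshold on the own arrays (log2 fold change 1.22, standard error 0.124, adjusted p = 0.0533, block fit 0.000485). The chains RT1-Da (log2 fold change 1.04, block fit adjusted p = 0.00182), RT1-Db1 (1.03, 0.00144) and RT1-Bb (0.86, 0.000845) passed as well, with culture 2 the lowest of the individual arrays in each. The loading factors RT1-DMa (0.56) and RT1-DMb (0.54) passed in the block fit too, with culture 3 highest, whereas RT1-DOb (0.03) and the protease Lgmn (0.09) did not. Leaving out culture 4, the block fit called 4 genes of the list higher, and without culture 1 it called 5. Against siScramble Cd74 had a log2 fold change of 1.18, RT1-Da of 0.95 and RT1-Db1 of 0.89. Of the wider list of 17 macrophage and leukocyte markers with a probe, 10 were tested and none passed in the block fit (median log2 fold change -0.01, no gene with 1 sign on all 5 arrays). The genes of this family are similar in sequence, and cross-hybridization between their probes was not tested.

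Epithelial adhesion genes were a further group with a median log2 ratio above 0 on every array. Of 18 tested, 9 passed in the block fit, all higher, and the median log2 fold change of the 18 was 0.30. Cdh1, which encodes E-cadherin, the adhesion molecule of epithelial junctions, had log2 ratios of 1.52, 0.78, 1.81 and 1.50 in cultures 1 to 4 and 1.26 on the pool. In wt cultures its log2 intensity was 6.88 to 7.65 and in siFoxE1 cultures 8.43 to 8.69, without overlap (log2 fold change 1.33, standard error 0.177, adjusted p = 0.117, block fit 0.00059). Prss8, a membrane-anchored serine protease also called prostasin, had log2 ratios of 1.48, 0.76, 1.51 and 1.34 and a pooled value of 0.99. Its partner protease St14 (0.39), their inhibitor Spint2 (0.40), the hemidesmosome integrin Itgb4 (0.95), the keratins Krt20 (0.88) and Krt7 (0.42), plakoglobin, Jup (0.62), and the laminin receptor Bcam (0.73) passed in the block fit with these log2 fold changes. The junction genes Tjp1 (0.03) and Ocln (0.00) did not pass. The lowest log2 fold change among the 18 was -0.36, which did not pass either, and 1 gene of the list was lower on all 5 arrays. Culture 2 gave the lowest ratio of Cdh1, Prss8, Krt20 and Itgb4. The block fit without culture 4 called 5 of the 18 genes and without culture 1 it called 6. Against siScramble the log2 fold change was 1.09 for Cdh1 and 0.99 for Prss8.

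Some calcium-binding S100 proteins and a few matrix genes were also higher. Of 9 S100 genes tested, 5 passed in the block fit, all higher, with a median log2 fold change of 0.40 for the 9, and 3 passed without culture 1 and 3 without culture 4. S100a4, which binds cytoskeletal proteins and is linked with cell motility, had log2 ratios of 1.39, 1.01, 2.55 and 1.71 in cultures 1 to 4 and 1.32 on the pool. It was the only gene at least 2-fold higher on all 5 arrays, with culture 3 highest (log2 fold change 1.49, standard error 0.255, adjusted p = 0.191, block fit 0.00229). S100a6 (0.87), S100a1 (0.56), S100a11 (0.49) and S100a10 (0.40) were the other 4. Adamts9, a secreted protease that cleaves proteoglycans, was at least 2-fold higher on each individual array, at 1.41, 1.19, 2.28 and 1.63, and stood at 0.99 on the pool (log2 fold change 1.31, standard error 0.189, adjusted p = 0.117, block fit 0.0022). Folr1, the folate receptor alpha, had log2 ratios of 1.10, 0.72, 1.72 and 1.23 and a pooled value of 1.21 (log2 fold change 1.20, block fit adjusted p = 0.000774). Of the 15 mesenchymal and matrix genes tested, 4 passed in the block fit, S100a4, Adamts9, the proteoglycan biglycan, Bgn (0.77), and Sparc (0.32). Biglycan had a second probe with a log2 fold change of -0.18. Vim (0.07), Fn1 (0.04) and Col1a1 (0.13) did not pass, and the median of the 15 was 0.04. Crip2, a LIM domain protein, had a log2 fold change of 0.71 (block fit adjusted p = 0.0193). When the study measured Crip2 mRNA again by qRT-PCR, with siScramble as reference, it found no difference after silencing. Crip2 was the only exception among the genes the study chose from its array list for qRT-PCR. There Adamts9, Cdh1, Duox2 and S100a4 were higher, and Casp4, Creld2, Dusp5, Etv5, Hspa5, Nr4a2 and Tm4sf1 were lower. The study also found Slc5a5 mRNA lower. By western blot it found Cdh1 protein higher, the Slc5a5 protein lower and Duox2 protein unchanged.

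Of the 6 largest positive values of the comparison, 2 belonged to the galectins Lgals5 and Lgals9 and the others to genes known to be induced by interferon. Culture 4 was the highest of the individual arrays for each of those named here. Oas1k and both galectins are not in the list of interferon-stimulated genes, whose highest log2 fold change was 1.72. Of 32 interferon-stimulated genes tested, 17 were higher and 1 was lower in the block fit (9 and 1 with separate dye terms). The median log2 fold change was 0.56. By array the median was 0.37 in culture 1, 0.22 in culture 2, 0.31 in culture 3, 1.23 in culture 4 and 0.64 on the pool. Ifi27, a mitochondrial protein induced by interferon, had log2 ratios of 1.35, 0.91, 1.49 and 2.34 in cultures 1 to 4 and 1.86 on the pool. All arrays were above 0.9, and its intensities did not overlap between conditions (log2 fold change 1.69, standard error 0.233, adjusted p = 0.117, block fit 0.000505). Mx1, a GTPase that blocks viruses, ran from 0.25 in culture 3 to 2.72 in culture 4, with a pooled value of 1.59 (log2 fold change 1.36, standard error 0.425, block fit adjusted p = 0.0285). Oas1a (1.63) and Oas1k (1.75), synthases of the messenger that activates RNase L, the receptor-transporting protein gene Rtp4 (1.72), the ubiquitin-like Isg15 (1.45) and the protease that removes it, Usp18 (1.30), passed in the block fit. Lgals9 (1.78) and Lgals5 (1.79), galectins whose genes are close relatives, had similar values on every array, from 0.76 and 0.69 in culture 2 to 3.01 and 3.02 in culture 4. Probes of Oas1a and Oas1k, and of Lgals9 and Lgals5, may share targets, which was not tested.

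The interferon list held exceptions. Stat2, a signal transducer of the interferon receptor, fell in the block fit, from -0.35 in culture 2 to -1.05 in culture 3 (log2 fold change -0.49, adjusted p = 0.0193). The lowest log2 fold change of the list was -0.84, of a gene that did not pass. Irf7 (0.93) and Irf9 (0.75), transcription factors of the same pathway, passed as higher, with culture 4 at 2.10 and 1.35. Of 10 genes for sensors of foreign RNA and for the RNA interference machinery none passed, and their median was 0.05. Ccl5, a chemokine, was higher on each array, from 0.77 in culture 1 to 1.44 in culture 4 (log2 fold change 0.92, block fit adjusted p = 0.00413). Against siScramble Ccl5 stood at 0.21 and was negative in cultures 1 and 2 (-0.31 and -0.14), and siScramble over wt was 0.81. Il23a was lower (-0.97, block fit adjusted p = 0.0495). Class I genes, which present peptides from within the cell, had 7 of 17 higher in the block fit, among them RT1-A1 (0.54), Tapbp (0.54) and B2m (0.36). Their median was 0.36 against wt and 0.17 against siScramble. With separate dye terms 4 were higher, and B2m did not pass (adjusted p = 0.101). Without culture 4 the block fit called 12 of the 32 interferon genes higher and none of the 17 class I genes, and without culture 1 it called 9 and 2.

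The comparison with siScramble, which shares the siFoxE1 extracts, gave smaller values for the interferon genes. The median log2 fold change of the 32 was 0.20 against siScramble and 0.56 against wt, and the indirect value of siScramble over wt had a median of 0.35. Ifi27 had a log2 fold change of 0.50 (standard error 0.113) against siScramble, and siScramble over wt was 1.22 for this gene (standard error 0.223). For Oas1k, Rtp4, Lgals9 and Lgals5 the values against siScramble were 0.51, 0.57, 0.48 and 0.49, and siScramble over wt was 1.26, 1.20, 1.30 and 1.26. The difference was tested in 1 fit of all 10 arrays by limma. No gene passed without the block. There 347 of 9880 genes had an unadjusted p under 0.05, which is a share below 0.05. With the block only Ifi27 passed (adjusted p = 0.0232), with adjusted p = 0.0563 for Ccl5 and 0.0664 for Oas1k. For the MHC class II list the median of siScramble over wt was 0.08, for epithelial genes it was also 0.08, and for Ahcy, Sem1 and Foxe1 the values were 0.10, 0.10 and 0.01.

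**Figure D3:**
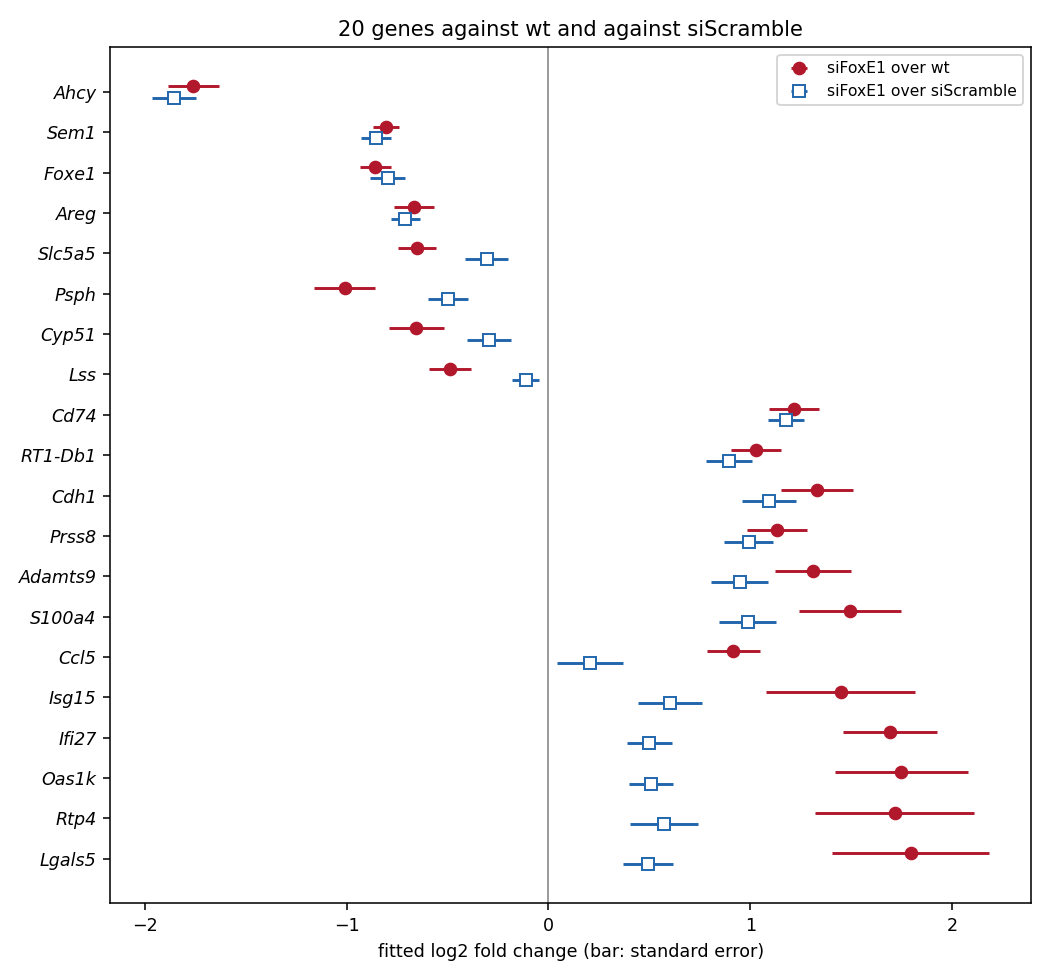
Fitted log2 fold change with its standard error for 20 genes against wt (filled red circles) and against siScramble (open blue squares), horizontal axis. Both values come from the same siFoxE1 extracts. For Ahcy, Sem1, Foxe1, Areg and Cd74 they lie close together. For the interferon genes, Ccl5 and Lgals5 at the bottom the value against wt is the higher.

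Genes of protein folding in the endoplasmic reticulum (ER) had large negative values that rested on cultures 3 and 4. Of 21 ER chaperone genes tested, 1 passed in the block fit, Fkbp14 (-0.36), and the median log2 fold change was -0.74. By array the median was -0.23 in culture 1, -0.05 in culture 2, -2.14 in culture 3, -1.002 in culture 4 and -0.48 on the pool. Hspa5, the central chaperone BiP, had log2 ratios of 0.07, -0.08, -3.94 and -1.21 in cultures 1 to 4 and -0.64 on the pool (log2 fold change -0.97, standard error 0.701, adjusted p = 0.493, block fit 0.24). Cultures 1 and 2 showed almost no difference, and culture 3 the largest. In wt cultures the log2 intensity of Hspa5 was 16.66, 13.79, 17.13 and 17.05 for cultures 1 to 4, and in siFoxE1 cultures it was 16.74, 13.71, 13.20 and 15.84. Culture 2 was thus low in both conditions and culture 1 high in both. The mean log2 intensity of the 21 genes was 13.21, 10.78, 12.81 and 12.50 in wt and 12.98, 10.73, 10.84 and 11.48 in siFoxE1 cultures, so the wt cultures alone spanned more than 2 on the log2 scale.

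Culture 3 was also the lowest for the single genes of this group with the largest spread. Hsp90b1, the ER form of Hsp90, had log2 ratios of -0.20, -0.16, -3.34 and -1.67 and a pooled value of -0.32. Hyou1, another chaperone, ran from 0.21 in culture 2 to -3.01 in culture 3 (block fit adjusted p = 0.0527), Creld2 from 0.08 to -2.90 (0.0857) and the lectin chaperone Calr from 0.20 to -2.74 (0.103). Derl3, a channel component of ER-associated degradation, had the largest SD of all genes tested, 2.35, with log2 ratios of -0.89, -0.33, -5.50 and -3.01 and -1.71 on the pool. Its fitted log2 fold change of -2.07 was the lowest of all genes, and its standard error of 0.887 left it short of the threshold in both fits (adjusted p = 0.298, block fit 0.0944). A second probe of Derl3 gave -1.57 and passed in the block fit (adjusted p = 0.0449). Ddit3, the stress factor CHOP, differed in sign, with 0.53 in culture 1, -1.42 in culture 2, -2.52 in culture 3 and -0.40 in culture 4. Casp4 had log2 ratios from -0.10 in culture 1 to -2.33 in culture 3 (log2 fold change -0.71, block fit adjusted p = 0.139). H1f5, a linker histone, and Cox6a2, a subunit of cytochrome oxidase, also had a large spread, from 0.00 to 2.89 and from 0.66 to -2.63.

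In ER-associated degradation, which returns misfolded proteins to the cytosol, 7 of 17 genes were lower in the block fit, with a median log2 fold change of -0.43 and no gene above 0. Sel1l, the scaffold of the ubiquitin ligase Hrd1, ran from -0.08 in culture 2 to -2.81 in culture 3 (log2 fold change -1.34, block fit adjusted p = 0.033), Herpud1 from -0.69 in culture 1 to -2.75 in culture 3 (-1.32, 0.0231) and Derl1 from 0.11 to -1.55 (-1.02, 0.0176). Of 33 genes of transport from the ER to the Golgi apparatus, 16 were lower, among them the tethering factor Uso1 (-0.89), the cargo receptor Lman1 (-0.66) with its partner Mcfd2 (-0.86), the SNARE Bet1 (-0.81) and the coat proteins Copb1 (-0.60) and Copa (-0.59), with a median of -0.42. These counts depended on single cultures, as did those over all genes. Without culture 1 the block fit called 3 and 1 genes of the 2 lists lower, without culture 2 it called 11 and 20, and without culture 4 it called none. Of all 9880 genes tested the block fit called 155, 1061 and 31 lower in the same order, beside 474 with every culture. For the 21 chaperone genes it called 11 without culture 2 and 4 without culture 3. With a dye term for each comparison, 2 genes of ER-associated degradation and 1 of ER to Golgi transport passed. Etv5, an Ets transcription factor, Gmppb, which makes GDP-mannose for glycosylation, and Mfsd2a, a lipid transporter, had the same order of cultures, with culture 2 nearest to 0 and culture 3 lowest, and passed in the block fit (log2 fold changes -1.26, -1.40 and -1.49, adjusted p = 0.0176, 0.0224 and 0.0137).

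**Figure D4:**
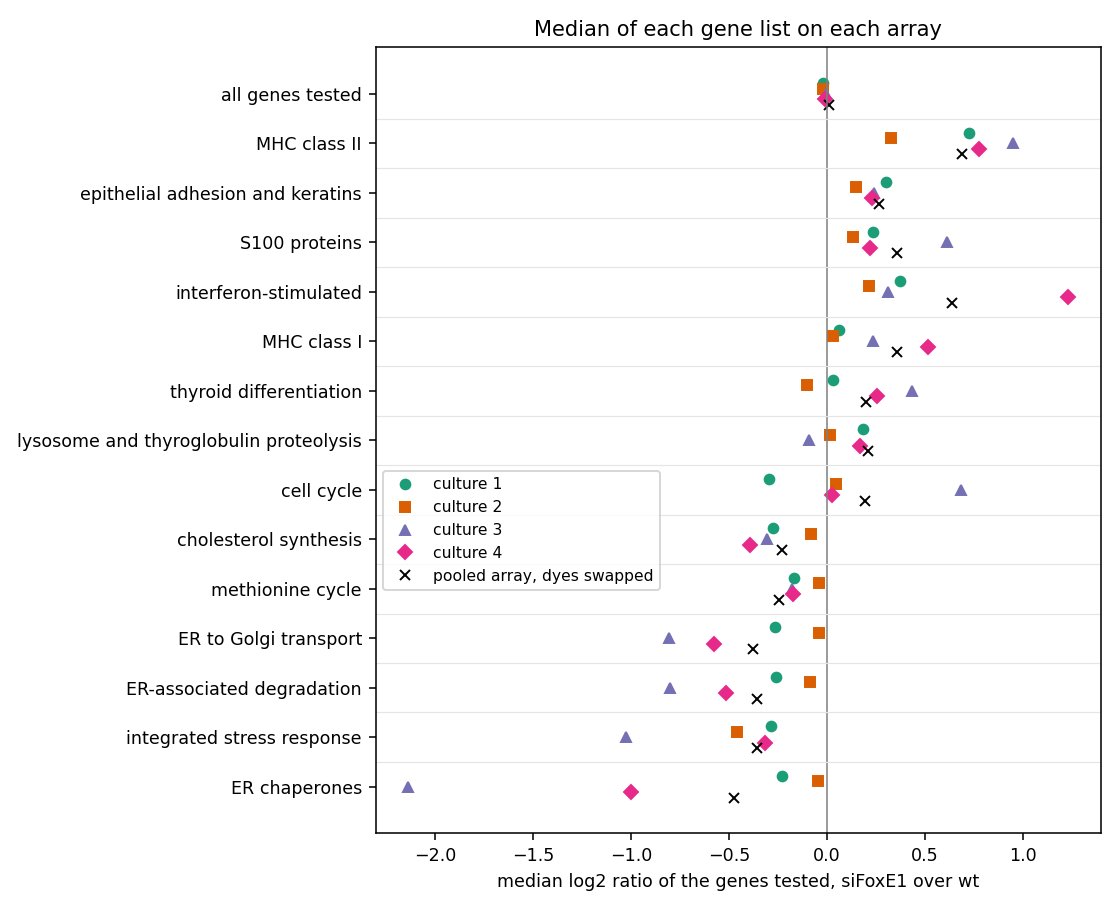
Median log2 ratio of siFoxE1 over wt (horizontal axis) over the tested genes of 14 lists and over all genes tested, 1 symbol per array as named in the legend. All genes lie near 0 on each array, ER chaperones run from -0.05 in culture 2 to -2.14 in culture 3, and interferon-stimulated genes are highest in culture 4.

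**Figure D5:**
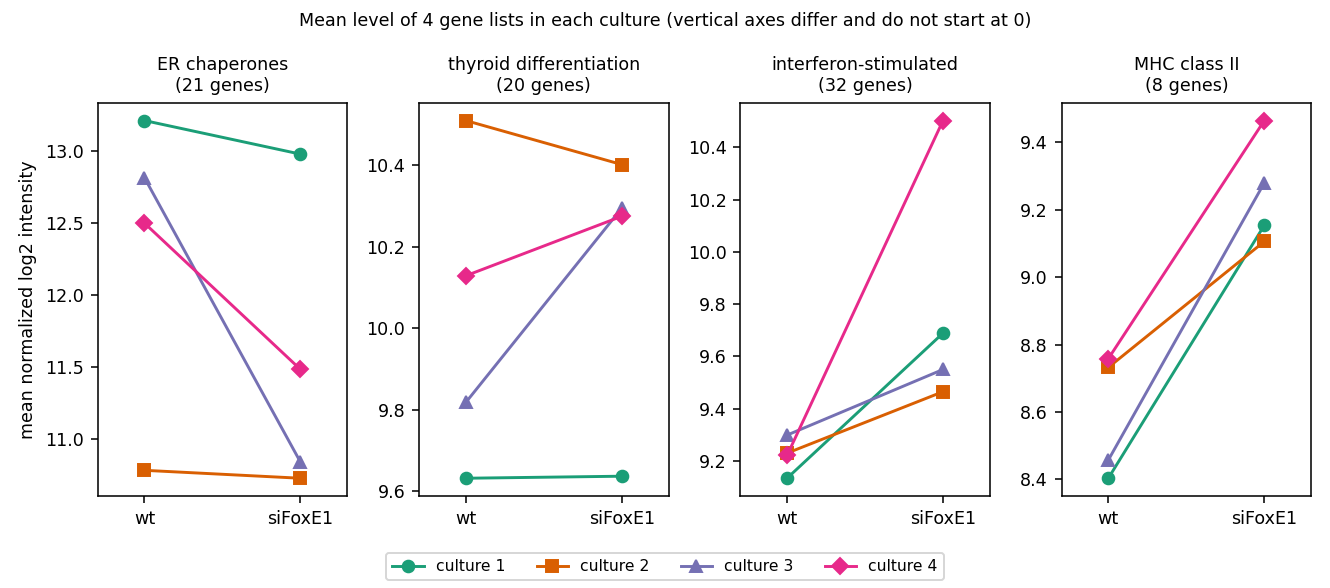
Mean normalized log2 intensity (vertical axis, which differs between panels) of the tested genes of 4 lists in wt and in siFoxE1 cells, with a line per culture. For ER chaperones the wt cultures lie far apart and culture 2 is low in both conditions, for thyroid differentiation the wt cultures also differ, and for interferon and MHC class II genes the wt cultures lie closer together and all 4 lines run upward.

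Targets of ATF4 and CHOP, which make up the integrated stress response to amino acid shortage and ER stress, included several lower genes. Of 31 tested, 16 were lower and none higher in the block fit (8 lower with separate dye terms), and the median was -0.47, with -0.29, -0.46, -1.02 and -0.32 in cultures 1 to 4. Psph, the last enzyme of serine synthesis, had log2 ratios of -0.98, -0.43, -1.31 and -0.87 and a pooled value of -1.12 (log2 fold change -1.01, standard error 0.151, adjusted p = 0.125, block fit 0.00146), and -0.50 against siScramble. Nupr1, a stress-induced chromatin protein, had -0.47, -0.72, -2.19 and -1.29 (log2 fold change -1.16, block fit adjusted p = 0.015). Atf4 itself (-0.59), the cystathionine enzyme Cth (-0.62), mitochondrial Mthfd2 (-0.61), Pycr1 of proline synthesis (-0.62) and asparagine synthetase, Asns (-0.47), passed in the block fit, while Trib3 (-0.36), Chac1 (-0.34) and Ddit4 (0.15) did not. Without culture 4 the block fit called 4 of the 31 genes lower, and without culture 1 it called 11.

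Lipid and one-carbon metabolism had several lower genes. In cholesterol synthesis 9 of 24 genes were lower in the block fit and none higher, with a median of -0.25 against wt and -0.07 against siScramble. With separate dye terms 5 were lower. Cyp51, which removes a methyl group from lanosterol, had log2 ratios of -0.64, -0.40, -0.80 and -1.16 in cultures 1 to 4 and -0.56 on the pool (log2 fold change -0.66, block fit adjusted p = 0.00795). Mvd (-0.89), Msmo1 (-0.79), Lss (-0.49), Hmgcs1 (-0.47) and Fdps (-0.46) passed too, whereas Sqle (-0.05) and Srebf2 (0.05) did not. Among genes of fatty acid synthesis and elongation 6 of 21 were lower, including the desaturases Fads1 (-0.57) and Fads2 (-0.58), Acly (-0.45) and Fasn (-0.31), and the elongase Elovl2 was higher (0.98). Elovl2 ran from 0.47 in culture 1 to 2.19 in culture 3, and a second probe gave 0.48 and did not pass (block fit adjusted p = 0.0702). In the methionine cycle 4 of 15 genes were lower, Ahcy, Cth, the spermidine synthase Srm (-0.52) and Mat2a (-0.40), which makes the methyl donor S-adenosylmethionine. A second probe of Mat2a gave -0.26 and did not pass (block fit adjusted p = 0.18). The Ahcy-like genes Ahcyl1 (0.17) and Ahcyl2 (0.05) did not pass, and the median of the list was -0.14. Without culture 4 the block fit called 1 cholesterol gene, 2 fatty acid genes and 1 methionine cycle gene lower, and without culture 1 it called 4, 4 and 3.

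Growth signalling showed lower levels of some feedback genes. Of 25 genes of ERK feedback and Ets factors, 6 were lower in the block fit and none higher. They were Etv5, the phosphatases Dusp6 (-1.10), Dusp5 (-0.72), Dusp8 (-0.46), Dusp1 (-0.42) and Dusp4 (-0.34). Spry2 (-0.02), Spry4 (0.05), Egr1 (0.17) and Fos (-0.07) did not pass, and the median of the list was -0.03. With separate dye terms 3 genes of the list were lower, and Dusp5 (adjusted p = 0.0938) and Dusp8 (0.0534) did not pass. Dusp6 ran from 0.06 in culture 2 to -1.78 in culture 3, and its log2 fold change was -0.45 against siScramble. Areg, a ligand of the EGF receptor, was lower in every culture, with log2 ratios of -0.37, -0.36, -0.72 and -0.69 and a pooled value of -0.80 (log2 fold change -0.67, standard error 0.0977, adjusted p = 0.119, block fit 0.0022). Nr4a2, a nuclear receptor induced by cAMP, had -0.67, -0.08, -1.03 and -1.01 and a pooled value of -0.78 (log2 fold change -0.74, block fit adjusted p = 0.0232), and a second probe did not pass (-0.45, adjusted p = 0.0642). Fgf18 was higher, from 0.49 in culture 1 to 2.03 in culture 3 (log2 fold change 1.03, block fit adjusted p = 0.0227, with separate dye terms 0.0523). Of 21 genes of TGF-beta and YAP output, 4 were higher, Id1 (0.48), Id4 (0.46), Id2 (0.39) and Tgfb2 (0.32), and Ccn2, also called CTGF, was lower (-0.75). No gene of this list was called higher without culture 1 or without culture 4, where 231 and 102 of all 9880 genes tested were. Tm4sf1, a tetraspanin-like surface protein, ran from near 0 in culture 2 to -1.79 in culture 3 (-0.79, block fit adjusted p = 0.0558). Pacsin2, which bends membranes at caveolae and endocytic sites, was lower in each culture, with -0.97, -0.50, -1.36 and -0.96 and -1.09 on the pool, without overlap between conditions (log2 fold change -1.02, adjusted p = 0.117, block fit 0.00101). Cd6 had 3 probes, with log2 fold changes of -1.05, -0.75 and -0.25. Leaving out culture 4, the block fit called none of the ERK feedback genes, and without culture 1 it called 4.

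Lysosomal and detoxifying genes had a few higher members. Of 25 genes of the lysosome and of thyroglobulin proteolysis, 5 were higher in the block fit, the cathepsins Ctsb (0.39), Ctsh (0.39), Ctsc (0.36) and Ctsd (0.33) and the protective protein Ctsa (0.33), with a median of 0.13. Of 28 NRF2 and glutathione genes, 5 were higher, among them the glutathione transferases Gstp1 (0.66), Gstm2 (0.62) and Gsta1 (0.47). Gstp1 had log2 ratios of 0.84, 0.41, 0.83 and 0.49 in cultures 1 to 4 (block fit adjusted p = 0.00407) and a log2 fold change of 0.27 against siScramble. The wt signal of Gsta1 was well above background on 3 of the 5 arrays. Hmox1 (-0.59) and Nqo1 (0.04) did not pass. The lowest log2 fold change of this list was -1.24, of a gene that did not pass. On all 5 arrays 6 genes of the list were higher and 3 lower. Of 30 genes of glycolysis and hypoxia 5 were higher, including Ldha (0.51) and Aldoc (0.64), whose second probe had a log2 fold change of -0.11, and 1, Hk2, was lower (-0.41). Against siScramble the values were 0.18 for Ldha and 0.10 for Aldoc. The lowest log2 fold change of the glycolysis and hypoxia list against wt was -1.03, of a gene that did not pass. The block fit without culture 4 called none, 2 and 1 genes of these 3 lists higher, and without culture 1 it called 3, 2 and 3.

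The remaining lists had at most 5 called genes each, several of them in small lists. Of 33 ribosomal protein genes 1 was higher and 2 lower in the block fit, with a median of -0.03, and of 35 genes of oxidative phosphorylation 1 was higher, with a median of 0.07 (7 higher without culture 2). Of 32 proteasome genes, Sem1 was the only one lower and Psma7 (0.35) the only one higher, and the median was 0.05. Among 15 other forkhead genes, Foxk1 (-0.35) was lower, and no other passed (4 lower without culture 2). A second probe of Foxk1 gave -0.08, and with separate dye terms Foxk1 did not pass (adjusted p = 0.0746). In the cell cycle list 2 of 35 genes were higher, Aurkb (0.65) and Ccnd1 (0.40), although the median per array ran from -0.30 in culture 1 to 0.68 in culture 3. Among 14 genes of inflammatory cytokines and NF-kB, 3 were higher, Ccl5, Csf1 (0.54) and Nfkbie (0.37), and Il23a and Nfkb2 (-0.29) were lower. Of 15 early genes induced by cAMP, Areg and Nr4a2 were lower, and of 26 EGF and FGF ligands and receptors 3 were higher and Areg was lower. Without culture 4 the numbers called higher were 1 for the cytokine list and none for the EGF and FGF, cell cycle, p53 and oxidative phosphorylation lists. No cytokine gene was lower without culture 4. Of all 9880 genes tested, 102 were higher and 31 lower there. Of 27 genes of p53 targets and apoptosis 2 were higher and 2 lower. Of 15 cytosolic heat shock genes 2 were higher, Hspb1 (0.55) and Cryab (0.61), and 1 lower. With separate dye terms Cryab did not pass (adjusted p = 0.0559). Of 13 genes of osmolyte handling 1 was higher, the myo-inositol transporter Slc5a3 (0.60), and 1 lower. Of 16 folate and one-carbon genes, Folr1 was higher and 2 were lower, and of 3 endothelial markers tested 1 was higher and of 3 C cell markers none.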

How the data were processed

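RNA was hybridized by the authors to Agilent rat arrays of 2 dyes, and the deposited spot intensities came from Feature Extraction 10.7.3.1. The authors' files also hold log10 ratios of red over green from that software, used here only to check dye direction, and quality marks. Normalized log2 ratios of the same arrays were deposited by the authors as well, and the submitters' notes name limma 3.2.3. In that file the pooled column is turned to siFoxE1 over wt (r = -0.932 with red over green).

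From the median signals, normexp (offset 50) corrected the background, control and outlier spots were left out, loess was applied within and quantile scaling between arrays, and spots of 1 probe were averaged. Probes entered the test if at least 3 of the 5 arrays showed them well above background in 1 channel. limma 3.58.1 (R 4.3.3 with data.table) was fitted with a dye term, which left 3 residual degrees of freedom, with Benjamini-Hochberg adjustment over 18526 probes. Transcript accessions named 17998 of 30367 probes, and 12369 stayed unnamed.

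Culture numbers pair the arrays, since the study draws the same siFoxE1 extract on both arrays sharing a number. Deviations correlated within numbers at r = 0.658, 0.796, 0.808 and 0.467 across probes, and number 4 at up to 0.534 with another number. The block fit used duplicateCorrelation (within-number correlation 0.525), with the pooled arrays of both comparisons as a block of their own.

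The named genes were Foxe1, all called genes, the 15 largest rises and 15 largest falls with 1 sign on all arrays, up to 4 such members per list, genes the study measured again, the 10 largest SDs, and up to 10 genes past the threshold in the indirect contrast. Single members of lists beyond these were chosen after their values were seen. Members and the 35 lists, with 835 of 915 genes on the array, were chosen with earlier results of these data known. Alternatives changed signals, normalization, filter, dye term, block, prior, probe choice and cultures. A few genes are not reported here. The number of arrays limits the precision. Tables and plots were made in Python 3.11.15 (pandas 2.3.3, numpy 2.4.6, matplotlib 3.10.9).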

Additional observations from a re-analysis of the deposited data

Results flagged for a closer look

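Among the 139 named genes, 5 had 1 culture whose ratio stood apart from the other 3 by Dixon's test, which flags about 1 in 20 genes by chance. Ahcy had a log2 ratio of -1.40 in culture 2, nearer to 0 than -1.94 to -2.01 in the others. Culture 3 stood apart for Herpud1 (-2.75, against -0.91 to -0.69), Hmox1 (-1.87, against -0.37 to -0.09), Rpl5 (-0.56, against -0.15 to -0.07) and Rps15 (0.14, against 0.04 to 0.05). The part that culture 3 as a whole, with its larger spread of ratios, has in these values was not tested.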

How the results depend on the processing

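On the own 5 arrays 3 genes passed, which included 3 list members and 3 named genes. The numbers of genes, list members and named genes that passed were 0, 0 and 0 with processed signals, 592, 102 and 76 without a dye term, and 137, 32 and 26 on individual arrays alone. Loess within arrays only gave 5 genes, and the mean over the probes of a gene gave 0. With all 10 arrays they were 1147, 166 and 92 without the replicate block and 1036, 175 and 96 with it. With separate dye terms they were 88, 33 and 32 without the block and 432, 90 and 64 with it. With the block they were 386, 88 and 67 without culture 1, 2215, 265 and 122 without culture 2, 940, 179 and 102 without culture 3, and 133, 46 and 39 without culture 4. Leaving out a culture on the own arrays gave 0 to 45 genes, 0 to 21 list members and 0 to 23 named genes. The pool still held RNA of the culture left out. For siScramble over wt, 1 gene passed with the block and 0 without it. A second probe turned the sign of Aldoc (-0.11) and of Bgn (-0.18). For single genes, 2219 alternative values kept direction and side of the threshold, 718 came to pass and 10 no longer passed. The causes were not tested.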
